A study of Mus musculus with 16 samples.

Results

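The genes described here encode the proteins of the cytosolic ribosome, the particle of 2 subunits that makes protein in the cytoplasm. They were chosen by gene symbol: names of the Rps and Rpl series together with Rpsa, Rplp0, Rplp1 and Rplp2, with pseudogene names of the -ps form and S6 kinase genes left out. Rpl22, which carries the tag used to isolate the RNA, and its paralog Rpl22l1 were also left out. Of 20145 named genes on the array, 82 were members, and 80 of them passed the filter on dim probes, among 14565 genes tested. These 80 were 32 genes of the small subunit and 48 of the large subunit, and 79 of them were well above background on all 16 arrays. Rpl10l and Rpl39l, copies of Rpl10 and Rpl39 best known from testis, were not well above background on all 4 arrays of any group, and they were not tested.

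The RNA came from polysomes, the strings of ribosomes on messenger RNA, of mouse kidney. In RiboTag mice, Cre recombinase switches the ribosomal protein Rpl22 to a form with an HA epitope, and in Nphs1-RiboTag mice the Cre was driven by Nphs1, the nephrin gene of podocytes. The podocyte is the epithelial cell that covers the glomerular capillary. There were 4 groups of 4 arrays, all on the C57BL/6N background: podocyte RNA of normal Nphs1-RiboTag mice, podocyte RNA of Nphs1-RiboTag-NEP25 mice 4 days and 7 days after LMB2, and glomerular RNA of normal Nphs1-RiboTag mice. Podocyte RNA was precipitated with antibody to HA, and glomerular RNA was taken from polysomes without precipitation. The NEP25 transgene puts human CD25 on the podocyte surface. There the immunotoxin LMB2 attaches and enters, and its toxin part inactivates the elongation factor Eef2 and so blocks protein synthesis. It was injected once, at 0.625 ng per g of body weight. Because the injected mice alone are described with the NEP25 transgene, toxin and transgene cannot be told apart.

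Each ribosome holds 1 copy of nearly every one of these proteins, and cells make them in matched amounts. Their messenger RNAs are among the most abundant in a cell and typically begin with a C followed by a run of pyrimidines, the terminal oligopyrimidine tract, through which mTORC1 signalling and the La-related protein Larp1 set how much of the mRNA sits on polysomes. Podocytes scarcely divide, but they have a large secretory and cytoskeletal protein output, and mTORC1 activity is known to matter for their growth and injury.

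To show what such starts look like in the genes the results turn on, the bases around the transcription start listed by RefSeq are printed for 8 members. Each window runs 5′ to 3′ on the gene's strand, from 10 bases before the listed start to 20 bases from it, on build GRCm38.p6. Capitals mark each run of at least 8 bases that starts with C and continues with C or T alone. Rps6, Rplp2, Rpl27a and Rpl15 hold such a run in the printed window. Rpl26, Rpl10 and Rpl36al hold one farther from the listed start, and Rps28, the member with the largest rise after LMB2, holds none within 50 bases.
Rps6, chr4:86857348-86857377, minus strand: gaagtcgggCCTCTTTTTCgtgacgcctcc
Rplp2, chr7:141447641-141447670, plus strand: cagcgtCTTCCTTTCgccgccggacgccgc
Rpl27a, chr7:109519185-109519214, plus strand: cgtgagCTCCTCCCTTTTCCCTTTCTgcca
Rpl15, chr14:18270967-18270996, minus strand: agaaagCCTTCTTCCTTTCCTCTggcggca
Rps28, chr17:33824543-33824572, minus strand: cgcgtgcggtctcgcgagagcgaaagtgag
Rpl26, chr11:68901556-68901585, plus strand: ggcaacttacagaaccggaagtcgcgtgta
Rpl10, chrX:74270806-74270835, plus strand: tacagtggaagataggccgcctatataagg
Rpl36al, chr12:69184048-69184077, minus strand: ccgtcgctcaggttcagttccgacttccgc
RefSeq starts were listed for 61 of the 82 members. A run of at least 8 pyrimidines beginning with C lay on the gene's strand within 50 bases before to 50 bases after the listed start in 50 of the 61 (82.0%). The same was found in 32.0% of 27025 genes with a listed start, and in 31.9% of 69 genes of the mitochondrial ribosome. A C with at least 4 pyrimidines after it stood exactly at the listed start in 13 of the 61 members (21.3%), in 3.01% of all genes and in 0 of the 69 mitochondrial ones. A listed start can lie some bases from the one a cell uses, so these letters are a description of the windows.

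Values are log2 processed intensity minus the array's own 75th percentile, so a gene at 0 was as bright as that percentile, and levels are compared between arrays for 1 probe at a time. A gene was called higher or lower at limma's adjusted p under 0.05 over all 14565 genes, and every difference is given on the log2 scale with its standard error and n = 4 arrays per group. No array had a saturated spot, the share of spots well above background was 49.3% to 57.5%, and the 75th percentile of the intensity lay between 227 and 415. The labelled cell type was checked against its markers. All 12 podocyte markers were higher in normal podocyte than in glomerular RNA, with summed levels of 2268 to 2421 against 701 to 918, and all 12 endothelial markers were lower, with 40.7 to 70.0 against 716 to 924. Both normal groups were scanned on 1 slide, and both LMB2 groups on a second slide at a later scan, so that LMB2 against normal cannot be told apart from slide and scan. Podocyte against glomerular RNA, and day 7 against day 4, were each measured within 1 slide. On the second slide all day 7 arrays lay in row 1 and all day 4 arrays in row 2. Day 7 against day 4 thus cannot be told apart from slide row.

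The ribosomal protein genes moved together from array to array, also within a group. Relative to the mean of the normal podocyte arrays, the median of the 80 genes was 0.21, -0.11, -0.03 and -0.07 on the normal podocyte arrays, replicates 1 to 4. On the day 4 arrays it was -0.12, 0.17, 0.23 and 0.19, and on the day 7 arrays -0.03, 0.41, 0.47 and 0.11. The glomerular arrays had 0.65, 0.27, 0.59 and 0.35. Replicate 1 was the highest normal podocyte array and the lowest array at both times after LMB2. On slide 2 both of these replicate 1 arrays occupied column 1, and the part of slide position in this spread was not tested.

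**Figure D1:**
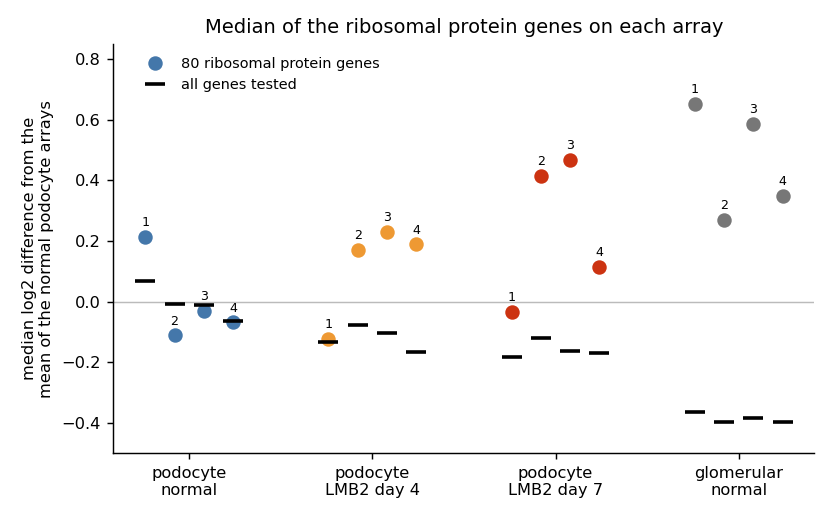
Median log2 difference of the 80 ribosomal protein genes (coloured points, numbered by replicate) and of all 14565 genes (black dashes) on each of 16 arrays, relative to the mean of the 4 normal podocyte arrays. The glomerular points (0.27 to 0.65) lie above every normal podocyte point, and replicate 1 lies lowest at day 4 (-0.12) and day 7 (-0.03).

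Normal podocyte RNA was compared with glomerular RNA to ask which transcripts the podocyte ribosomes held. Most ribosomal protein genes were lower in podocyte RNA: 50 of 80 were lower, 6 were higher and 24 were not called, with a median difference of -0.47. Over all genes tested 27.5% were lower, 51.6% were higher and the median was 0.38, so the genes of the ribosome lay on the other side of the array's overall shift. All 4 podocyte arrays lay below all 4 glomerular arrays for 44 members and above them for 6, where all genes gave 25.2% and 47.8%. Small subunit genes were lower in 24 of 32 cases with 1 higher and a median of -0.59, and large subunit genes in 26 of 48 cases with 5 higher and a median of -0.36. Markers of other cells were lower in podocyte RNA too, 11 of 11 mesangial and smooth muscle, 12 of 12 proximal tubule, 8 of 9 distal nephron, 8 of 12 leukocyte and 6 of 6 red blood cell genes, and their part in the result was not tested. Precipitation and cell type differ together between these 2 kinds of RNA, and in bulk samples fewer cells of a type and less RNA per cell cannot be told apart. The median of all genes moved to between 0.17 and 0.30 under 4 other scalings, and the median of the members lay 0.79 to 0.91 below it under those 4 and 0.85 below it here.

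**Figure D2:**
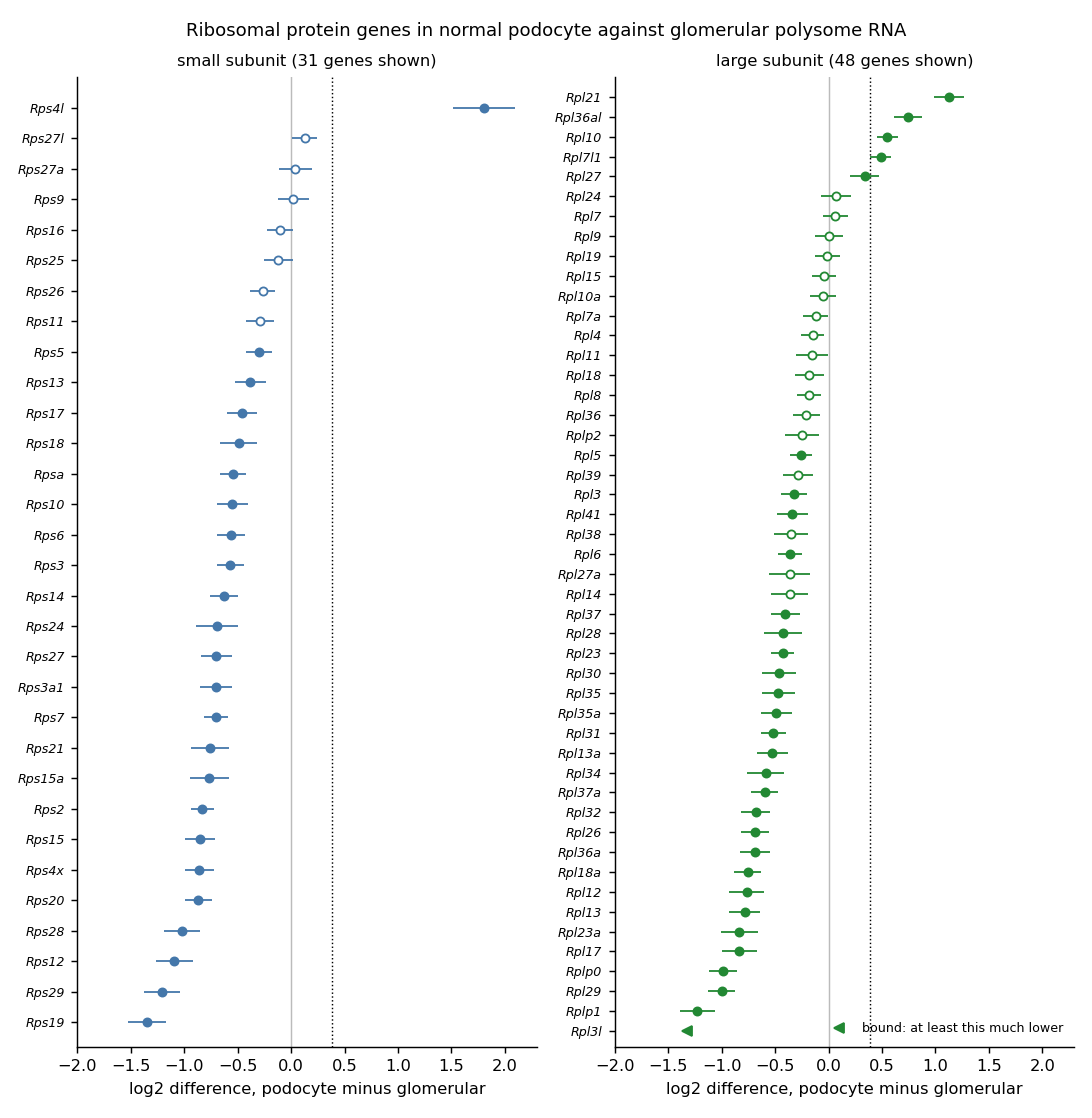
Log2 difference, normal podocyte minus glomerular RNA, of ribosomal protein genes with its standard error (n = 4 arrays per group), for 31 genes of the small subunit (left) and 48 of the large subunit (right). Filled points were called, open points were not, the dotted line is the median of all genes tested (0.38), and the triangle for Rpl3l is a bound; most points lie left of 0, down to -1.35 for Rps19.

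In the small subunit the lowest was Rps19, which is needed to mature the small subunit's ribosomal RNA and is the gene most often mutated in Diamond-Blackfan anaemia. Its values were 4.20, 3.75, 3.75 and 3.88 in normal podocyte RNA, against 5.55, 5.15, 5.15 and 5.15 in glomerular RNA. The groups lay far apart, and Rps19 was 2.55-fold lower in podocyte RNA (-1.35 ± 0.18, adjusted p = 6.8e-06). Rps29, a zinc-binding protein of the small subunit's head, had 7.32, 6.55, 7.03 and 6.88 in podocyte RNA, against 8.23, 8.11, 8.17 and 8.10 in glomerular RNA. All 4 podocyte arrays were below every glomerular array, by -1.21 ± 0.17. Rps12, a head protein linked to cell competition in Drosophila, had 7.32, 6.79, 7.13 and 6.95 in podocyte RNA, against 8.29, 7.91, 8.30 and 8.05 in glomerular RNA. It too was lower without overlap (-1.09 ± 0.17). Rps28, which lies near the exit of the mRNA channel, had 6.65, 6.41, 6.52 and 6.35 in podocyte RNA, against 7.66, 7.33, 7.62 and 7.42 in glomerular RNA, a difference of -1.02 ± 0.17.

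Other small subunit genes with known roles were lower by less. Rps6, the substrate of S6 kinase downstream of mTORC1, had 6.74, 6.44, 6.57 and 6.43 in podocyte RNA, against 7.32, 6.89, 7.25 and 6.98 in glomerular RNA. Its difference was -0.56 ± 0.13, and the groups did not overlap. The other kept probes of Rps6 gave -0.64 and 0.13, the latter not called. Rpsa, known also as a laminin receptor, differed by -0.54 ± 0.12, with 7.31 to 7.63 in podocyte RNA and 7.79 to 8.11 in glomerular RNA. Rps4x, the X-linked form of a protein that binds the ribosomal RNA early in assembly, had 5.33, 4.95, 5.12 and 5.06 in podocyte RNA, against 6.22, 5.73, 6.04 and 5.90 in glomerular RNA (-0.86 ± 0.14). Rps27a, made as a fusion with ubiquitin, was among the genes not called: it had 7.69 to 8.03 in podocyte RNA and 7.60 to 7.99 in glomerular RNA, with a difference of 0.04. Rps27l, a p53-responsive copy of Rps27, was not called either (0.13, with 5.41 to 5.75 against 5.24 to 5.53), and with quantile normalization it was called lower (-0.21, or -0.18 after normexp correction).

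In the large subunit 2 of the 3 P stalk genes were lower. The stalk is made of Rplp0 and pairs of Rplp1 and Rplp2, and it draws the elongation factors, Eef2 among them, to the ribosome. Rplp1 had 6.46, 5.92, 6.17 and 6.11 in normal podocyte RNA, against 7.64, 7.10, 7.58 and 7.25 in glomerular RNA (-1.23 ± 0.17). Rplp0 had 7.18, 6.67, 6.74 and 6.73 in podocyte RNA, against 8.06, 7.67, 7.86 and 7.68 in glomerular RNA (-0.99 ± 0.13). Both were lower without overlap, and the other 2 kept probes of Rplp0 gave -1.13 and -1.06. Rplp2 was not called (-0.25 ± 0.16, adjusted p = 0.16), with 7.72 to 8.19 in podocyte RNA and 7.96 to 8.35 in glomerular RNA. It was called lower with quantile normalization (-0.42) and with the replicate block (-0.25). Rpl29, a heparin-binding protein of the large subunit, had 6.73, 6.48, 6.41 and 6.49 in podocyte RNA, against 7.67, 7.45, 7.50 and 7.48 in glomerular RNA. It fell by 1.00 ± 0.13, or 2.00-fold, relative to glomerular RNA.

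The proteins that join the 5S ribosomal RNA, Rpl5 and Rpl11, differed little. Outside the ribosome these 2 proteins bind Mdm2 and so free p53 when ribosome assembly fails. Rpl5 had 4.96, 4.68, 4.61 and 4.76 in podocyte RNA, against 5.17, 4.83, 5.07 and 4.98 in glomerular RNA. The groups overlapped, and the call (-0.26 ± 0.10, adjusted p = 0.032) was lost without podocyte replicate 2, 3 or 4 or glomerular replicate 1 or 3 (-0.26 to -0.21). The call of Rpl5 was also lost without the filter and in the 8 arrays alone. Rpl11 was not called (-0.16), with 7.68 to 8.08 in podocyte RNA and 7.82 to 8.19 in glomerular RNA, and was called lower with quantile normalization (-0.28).

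The 6 members that were higher in podocyte RNA include several copies of another ribosomal protein gene. Rps4l, an intronless copy of the Rps4 gene that the RefSeq table lists as a pseudogene, had 4.68, 4.88, 5.99 and 5.40 in normal podocyte RNA, against 2.97, 3.19, 4.18 and 3.40 in glomerular RNA. It was 3.49-fold higher (1.80 ± 0.29), with replicate 3 the highest array in both groups. Rpl36al, the copy of Rpl36a on an autosome, had 6.06, 5.77, 5.75 and 5.71 in podocyte RNA, against 5.18, 4.99, 5.10 and 5.06 in glomerular RNA (0.74 ± 0.13). The X-linked Rpl36a went the other way, with 5.17, 4.76, 4.91 and 4.85 in podocyte RNA, against 5.77, 5.46, 5.72 and 5.50 in glomerular RNA (-0.69 ± 0.14). Its other 2 kept probes gave -0.66 and -0.08, so that 1 of the 3 hardly differed. Rpl7l1, a copy of Rpl7 that takes part in ribosome assembly, was higher by 0.49 ± 0.10, with -0.63 to -0.31 in podocyte RNA and -1.04 to -0.80 in glomerular RNA.

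The remaining higher members were Rpl21, Rpl10 and Rpl27. Rpl21, a core large subunit protein mutated in a human hair loss disorder, had 0.91, 0.49, 0.72 and 0.58 in podocyte RNA, against -0.26, -0.63, -0.51 and -0.40 in glomerular RNA. It was 2.18-fold higher (1.13 ± 0.14), and its second probe gave 0.70. Rpl10, an X-linked protein added last to the large subunit, had 8.90, 8.93, 8.65 and 8.73 in podocyte RNA, against 8.42, 8.17, 8.22 and 8.19 in glomerular RNA (0.55 ± 0.10). All 3 of its kept probes were higher, at 0.55, 0.39 and 0.43, but with quantile normalization after normexp correction the difference was 0.13 and the call was lost. Rpl27, which is mutated in some families with Diamond-Blackfan anaemia, was higher by 0.34 ± 0.14, with 7.08 to 7.47 in podocyte RNA and 6.71 to 6.99 in glomerular RNA. Its call was lost without podocyte replicate 1 or 3 or glomerular replicate 2 or 4 (0.25 to 0.35), with array medians at 0 (0.26), with normexp correction and the 75th percentile (0.28) and with the mean of its probes (0.31). Rpl3l, the muscle form of Rpl3, was not well above background on any normal podocyte array and was well above it on all 4 glomerular arrays, where it had -3.14, -3.35, -4.39 and -3.18. Taken as a bound, Rpl3l was at least 2.51-fold lower in podocyte RNA. It passed the filter on dim probes through the glomerular arrays alone, so its place among the members called lower is no separate support.

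Podocytes after LMB2 were then compared with normal podocytes to follow the response to the toxin. At day 4 the ribosomal protein genes as a group had moved little: 7 of 80 rose, 2 fell and 71 were not called, the median being 0.10, while all genes had -0.12, of which 12.4% rose and 19.9% fell. At day 7, 24 of 80 rose, 1 fell and 55 were not called, the median being 0.24, while all genes had -0.14, of which 21.6% rose and 36.7% fell. In this fit the share of members that rose at day 7 was thus above the share of all genes, and the share that fell was below it. The excess of rises was not kept in every fit, as given below. For 10 of the 80 members all 4 day 7 arrays lay above all 4 normal arrays, a smaller share than the 17.6% of all genes. The rises at day 7 were 10 of 32 genes of the small subunit and 14 of 48 of the large subunit, with medians of 0.22 and 0.26. The day 4 and day 7 comparisons share the 4 normal arrays, so agreement between them is no second observation.

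These counts moved with single arrays and with the scaling. Without day 7 replicate 2 the rises at day 7 were 14 of 80, where 19.3% of all genes rose. Without day 7 replicate 3 they were 16 of 80, against 21% of all genes, and with the replicate block 12 of 80, against 19.7%. In these fits the share of members that rose was not above that of all genes. Without day 7 replicate 1 or normal replicate 1 the rises were 35 and 34, against 20.3% and 20.4% of all genes. The rises at day 4 were 12 without day 4 replicate 1, 4 without normal replicate 2 or day 4 replicate 3, and 3 without day 4 replicate 4. With quantile normalization 19 rose and 2 fell at day 4, and 29 rose and 5 fell at day 7, while with array medians at 0 the counts were 9 and 1 at day 4 and 40 and 1 at day 7. The median of the members lay 0.39 above that of all genes at day 7, and 0.24 to 0.39 above it under the 4 other scalings. Podocyte markers fell over the same time, 5 of 12 at day 4 and 11 of 12 at day 7, with summed levels of 2268 to 2421 in normal podocytes, 1832 to 2277 at day 4 and 1329 to 1582 at day 7. Proximal tubule markers ranged widely on single arrays, with summed levels of 44.4 to 168 in normal podocytes, 18.1 to 215 at day 4 and 23.2 to 339 at day 7, and with 0 of 12 called by limma at either time, and 0 at an unadjusted p under 0.05. The summed mesangial and smooth muscle markers were 28.3 to 41.2 in normal podocytes, 51.1 to 83.0 at day 4 and 808 to 1100 at day 7, with 1 of 11 higher at day 4 and 5 of 11 at day 7. Of 12 endothelial markers 2 fell at day 4, and 3 rose and 1 fell at day 7. Leukocyte markers rose in 3 of 12 cases at each time, with 1 lower at day 7, and red blood cell markers fell in 5 of 6 cases at day 7. The part of these markers in the result was not tested.

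**Figure D3:**
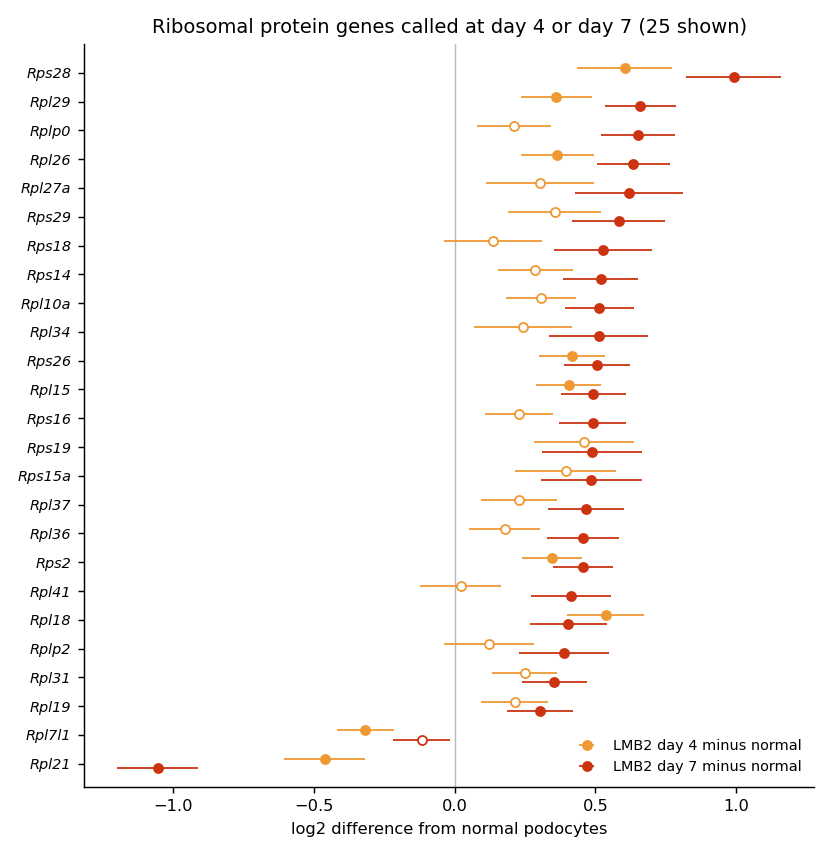
Log2 difference from normal podocytes, with its standard error (n = 4 arrays per group), for 25 of the ribosomal protein genes called at day 4 (orange) or day 7 (red); filled points were called and open points were not. Rps28 reaches 0.99 at day 7, and Rpl21 lies at -0.46 at day 4 and -1.06 at day 7.

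Rps28 had the largest rise in both comparisons with normal podocytes. It had 6.65, 6.41, 6.52 and 6.35 in normal podocytes, 6.65, 7.06, 7.36 and 7.27 at day 4, and 7.27, 7.73, 7.75 and 7.13 at day 7. Each LMB2 array lay at or above the highest normal array, and the change was 0.60 ± 0.17 at day 4 and 0.99 ± 0.17, or 1.99-fold, at day 7 (adjusted p = 1.6e-04). Glomerular RNA, at 7.33 to 7.66, lay inside the day 7 range, with day 7 arrays above and below it and none within it. Rps29 was not called at day 4 (0.35) and rose at day 7 by 0.58 ± 0.17. It had 6.55 to 7.32 in normal podocytes, 6.99 to 7.46 at day 4 and 7.21 to 7.80 at day 7, with 1 normal array inside the day 7 range. Rps26, which touches the mRNA at its exit from the small subunit, rose by 0.42 ± 0.12 at day 4 and 0.51 ± 0.12 at day 7, with 6.17 to 6.46 in normal podocytes, 6.44 to 6.80 at day 4 and 6.57 to 7.06 at day 7. Rps19 was not called at day 4 (0.46) and rose by 0.49 ± 0.18 at day 7, where it had 3.90, 4.47, 4.76 and 4.40. The day 7 call of Rps19 was lost without any one of replicates 2 to 4 of either group (0.36 to 0.48), and Rps19 was called at day 4 without normal replicate 1 (0.56) or day 4 replicate 1 (0.57). Rps29 was called at day 4 without normal replicate 1 (0.48). With quantile normalization both were called at day 4, Rps19 at 0.56 and Rps29 at 0.36.

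Several small subunit genes with known roles were not called. Rps6 had 6.43 to 6.74 in normal podocytes, 6.41 to 6.64 at day 4 and 6.53 to 6.95 at day 7, and was called at neither time (0.03 and 0.20). Rpsa (0.09 and 0.16), Rps4x (-0.05 and 0.16), Rps27a (0.19 and 0.28), Rps12 (0.08 and 0.20) and Rps27l (0.27 and 0.27) gave no call at day 4 or day 7 either. Without day 7 replicate 1 the day 7 values of Rps12 (0.37), Rps27a (0.39) and Rps27l (0.34) were called, and so was Rps27l without normal replicate 1 (0.34). Rps27l was called higher with quantile normalization at day 4 (0.32) and day 7 (0.32), with its normexp version (0.30 and 0.31), and at day 7 with array medians at 0 (0.37). At day 7 Rps4x was called with both quantile settings (0.23 and 0.28), and Rps27a with array medians at 0 (0.38). For each of them the normal arrays overlapped the arrays of both times.

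Among large subunit genes, Rpl29, Rpl26, Rpl18 and, on its brighter probe alone, Rpl15 rose at both times. Rpl29 had 6.73, 6.48, 6.41 and 6.49 in normal podocytes, 6.56, 6.93, 7.02 and 7.04 at day 4, and 6.99, 7.15, 7.46 and 7.15 at day 7. Its day 7 arrays all lay above the normal arrays (0.66 ± 0.13), while at day 4 replicate 1 lay among them (0.36 ± 0.13). Rpl26, which also binds the leader of the p53 mRNA, had 6.17, 5.93, 5.98 and 6.04 in normal podocytes, 6.10, 6.37, 6.56 and 6.54 at day 4, and 6.57, 6.78, 6.91 and 6.39 at day 7. The change was 0.36 ± 0.13 at day 4 and 0.63 ± 0.13 at day 7, and its other 2 probes gave 0.58 and 0.94 at day 7. The day 4 calls of Rpl29 (adjusted p = 0.040) and Rpl26 (adjusted p = 0.043) were lost without any one of normal replicates 2 to 4 or day 4 replicates 2 to 4, at 0.31 to 0.37, and with normexp correction and the 75th percentile, at 0.25 for both. Rpl18, a large subunit protein also mutated in Diamond-Blackfan anaemia, rose by 0.54 ± 0.14 at day 4 and 0.40 ± 0.14 at day 7, with 6.34 to 6.79 in normal podocytes, 6.75 to 7.20 at day 4 and 6.66 to 7.06 at day 7. Its day 7 call was lost without normal replicate 2 or 4 or day 7 replicate 2 (0.34 to 0.37) and with normexp correction and the 75th percentile (0.31).

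Some large subunit genes depended on the probe. Rpl27a, which carries a long pyrimidine run at its listed start, had 6.63, 6.30, 6.37 and 6.30 in normal podocytes, 6.35, 6.74, 6.92 and 6.80 at day 4, and 6.78, 7.27, 7.22 and 6.80 at day 7. It was not called at day 4 and rose without overlap at day 7 (0.62 ± 0.19). Its other 2 kept probes gave 0.68 and -0.22 at day 7, and the call was lost with the mean of the 3 (0.36). Rpl15, a structural protein near the peptide tunnel, rose by 0.41 ± 0.12 at day 4 and 0.49 ± 0.12 at day 7 on its brighter probe, with 6.12 to 6.44 in normal podocytes, 6.41 to 6.84 at day 4 and 6.61 to 6.97 at day 7. Its second probe had -0.24 at day 4, not called, and was called lower at day 7 (-0.58). The mean of both probes gave 0.08 at day 4 and -0.05 at day 7, with neither called, so the rise at both times rests on the brighter probe. The day 4 call was also lost without day 4 replicate 4 (0.35).

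Of the P stalk genes, Rplp0 and Rplp2 rose at day 7 and Rplp1 was not called. Rplp0 had 7.18, 6.67, 6.74 and 6.73 in normal podocytes, 6.84, 7.02, 7.12 and 7.18 at day 4, and 7.40, 7.57, 7.65 and 7.30 at day 7. Every day 7 array lay above every normal and every day 4 array, and the change was 0.21 at day 4, not called, and 0.65 ± 0.13 at day 7, with 0.68 and 0.64 from its other probes. Rplp2 had 7.72 to 8.19 in normal podocytes, 7.71 to 8.19 at day 4, and 8.05, 8.52, 8.53 and 8.03 at day 7. Its rise at day 7 was close to the threshold (0.39 ± 0.16, adjusted p = 0.0498), and it was lost without any one of normal replicates 2 to 4 or day 7 replicates 2 or 3 (0.31 to 0.39). It was lost with quantile normalization too (0.25), and with normexp correction and the 75th percentile (0.35). Rplp1 was called at neither time (-0.06 and 0.01), with 5.92 to 6.46 in normal podocytes, 5.84 to 6.24 at day 4 and 5.84 to 6.45 at day 7. The 5S particle genes Rpl5 (0.03 and -0.12) and Rpl11 (0.04 and 0.26) were not called either, though with array medians at 0 Rpl11 was called at day 7 (0.36).

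Rpl21 was the member that fell at both times, on its brighter probe. It had 0.91, 0.49, 0.72 and 0.58 in normal podocytes, 0.15, 0.23, 0.26 and 0.21 at day 4, and -0.74, -0.46, 0.05 and -0.38 at day 7. Each group lay wholly below the one before it, and the change was -0.46 ± 0.14 at day 4 and -1.06 ± 0.14, or 2.08-fold lower, at day 7 (adjusted p = 2.2e-05). Glomerular RNA had -0.63 to -0.26, near the day 7 values. The second probe of Rpl21 gave 0.06 at day 4 and -0.32 at day 7, and the day 4 call was lost with the mean of both probes (-0.20) and without normal replicate 1 (-0.39), day 4 replicate 1 (-0.44) or day 4 replicate 4 (-0.46). Rpl7l1 also fell at day 4 (-0.32 ± 0.10), where it had -0.86 to -0.73, and was not called at day 7 (-0.12). That call was lost without normal replicate 1 or 2 or day 4 replicate 2, 3 or 4 (-0.32 to -0.27) and with array medians at 0 (-0.26). Rps4l had 4.68 to 5.99 in normal podocytes, 4.27 to 4.80 at day 4 and 4.31 to 4.93 at day 7, and was not called (-0.64 and -0.55). Rpl36al (0.06 and 0.26), Rpl36a (0.04 and 0.07), Rpl10 (-0.14 and -0.12) and Rpl27 (0.09 and 0.12) were not called at either time. Without normal replicate 1 the day 7 values of Rps4l (-0.73) and Rpl36al (0.34) were called, and so was Rpl36al without day 7 replicate 4 (0.35). With quantile normalization Rpl10 was called lower at day 7 (-0.26) and Rpl36al higher (0.28), and Rpl36al also with array medians at 0 (0.36) and with the normexp version of quantile normalization (0.29).

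**Figure D4:**
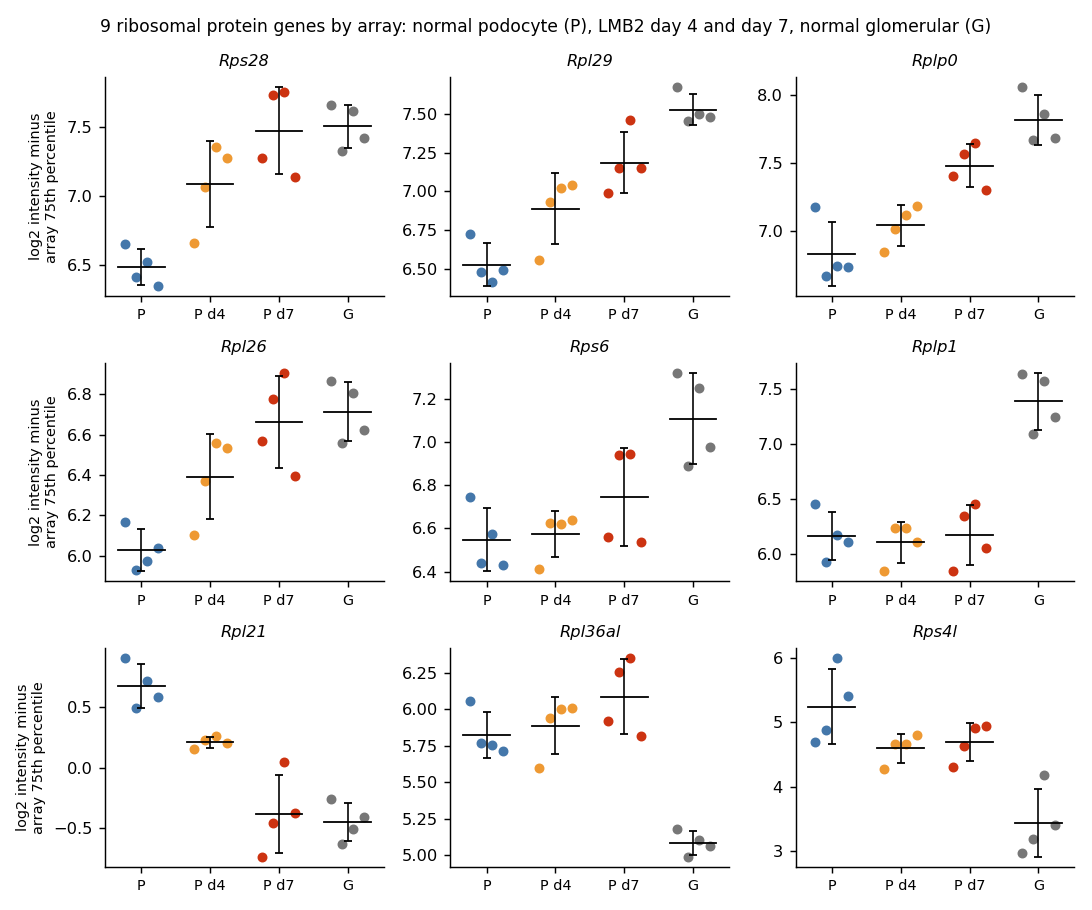
Log2 intensity minus the array's 75th percentile for 9 ribosomal protein genes on every array: normal podocyte (P), podocyte 4 and 7 days after LMB2 (P d4, P d7) and normal glomerular (G), with the mean (long bar) and SD (n = 4), each panel on its own scale. Rps28, Rpl29, Rplp0 and Rpl26 lie higher at day 7 than in normal podocytes without overlap, Rplp1 does not, and Rpl21 lies lower.

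Day 7 was compared with day 4 within 1 slide, each time in its own slide row, to ask what changed between the times. Of the 80 genes 2 rose, 1 fell and 77 were not called, the median being 0.10, while all genes had -0.07, of which 13.2% rose and 20.7% fell. Rplp0 rose by 0.44 ± 0.13 (adjusted p = 0.020), with no overlap between the times. Rpl41, the shortest protein of the ribosome, had 8.10, 7.74, 7.98 and 7.79 in normal podocytes, 7.62, 7.97, 8.14 and 7.97 at day 4, and 8.21, 8.57, 8.41 and 8.07 at day 7. Its rise over day 4 was 0.39 ± 0.14 (adjusted p = 0.047), and the day 7 range overlapped the day 4 range. That call was lost without day 4 replicate 1, 2 or 4 or day 7 replicate 1, 2 or 3 (0.29 to 0.43). Rpl21 fell by 0.59 ± 0.14 between the times, and its second probe gave -0.39, not called. The rises numbered 0 without day 4 replicate 1 or day 7 replicate 2 (1 and 3 at an unadjusted p under 0.05), 1 without day 4 replicate 2 or 4 or day 7 replicate 1 or 3, and 5 without day 7 replicate 4. The call of Rplp0 was lost without day 4 replicate 1 or day 7 replicate 2 or 3 (0.37 to 0.41). With quantile normalization 4 rose and 4 fell.

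The list of 18 members known to be mutated in Diamond-Blackfan anaemia, an inherited failure of red cell production, was counted apart. In normal podocyte against glomerular RNA 13 of the 18 were lower and 1 was higher, with a median of -0.50, where 27.5% of all genes were lower and 51.6% higher. At day 4 of LMB2 5 rose and 0 fell, and at day 7 8 rose and 0 fell, with medians of 0.24 and 0.33, and 0 fell at an unadjusted p under 0.05. Over all genes 12.4% rose and 19.9% fell at day 4, and 21.6% rose and 36.7% fell at day 7. All 18 belong to the 80 members, of which 50 were lower and 6 higher in podocyte RNA, with a median of -0.47. Of the 80, 7 rose and 2 fell at day 4, and 24 rose and 1 fell at day 7. Rps28, Rps26, Rpl26, Rpl18 and, on its brighter probe alone, Rpl15 were the 5 of the 18 that rose at day 4. They are named here because so few were called.

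The members were also divided by the pyrimidine run near the listed start. Among tested members with a run, 28 of 49 were lower in podocyte than in glomerular RNA, with a median of -0.41, and among those with none 8 of 10, with a median of -0.56, where 27.5% of all genes were lower. At day 7, 17 of 49 with a run rose, with a median of 0.26, and 2 of 10 with none, with a median of 0.06. Among all genes 21.6% rose, which is about the share of the 10 with none, and the difference between members with and without a run was not tested. Rps28, shown above with no run, was 1 of those 2.

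Other components of the ribosome and its supply lines were set beside the members. Rack1 and Fau encode ribosomal proteins with names outside the series. Rack1 was lower in podocyte than in glomerular RNA (-0.54 ± 0.11), and Fau was not called (0.03). At day 4 and day 7 neither Rack1 (0.18 and 0.16) nor Fau (0.08 and 0.08) was called. Mitochondrial ribosomal proteins, which build the separate ribosome of the mitochondrion, lay the other way from the members in both settings. Of 77 tested, 65 were higher and 0 lower in podocyte RNA (median 0.73), with 0 lower at an unadjusted p under 0.05 as well, led by Mrps6 at 1.82 ± 0.11. After LMB2 18 fell and 1 rose at day 4 (median -0.18), and 47 fell and 3 rose at day 7 (median -0.36). Mrps6 had -0.78 ± 0.11 and -1.20 ± 0.11, and Mrpl45 was higher at day 7 by 0.83 ± 0.13. Over all genes 51.6% were higher and 27.5% lower in podocyte RNA. For LMB2 19.9% of all genes fell and 12.4% rose at day 4, and 36.7% fell and 21.6% rose at day 7. The share of mitochondrial ribosomal protein genes that fell at day 4 was thus near that of all genes.

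Factors that assemble ribosomes in the nucleolus were higher in podocyte RNA, 46 of 50 with 0 lower, also at an unadjusted p under 0.05, and a median of 0.96. Over all genes 51.6% were higher and 27.5% lower, with a median of 0.38. Among the assembly factors were Ltv1 (1.74 ± 0.16) and Sbds (1.52 ± 0.13), which help mature the small and the large subunit, and the nucleolar protein Nop16 (1.60 ± 0.12). After LMB2 genes of the list went both ways. At day 4 14 rose and 6 fell, and at day 7 15 rose and 14 fell, with medians of 0.08 and -0.06. Among all genes 12.4% rose and 19.9% fell at day 4, and 21.6% rose and 36.7% fell at day 7. Nop58, a core protein of box C/D small nucleolar particles, rose by 1.60 ± 0.17 at day 4 and 1.79 ± 0.17 at day 7, and Gnl3, the nucleolar GTPase nucleostemin, by 1.68 ± 0.22 and 1.85 ± 0.22. Nop16 fell by 1.00 ± 0.12 and 1.17 ± 0.12.

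**Figure D5:**
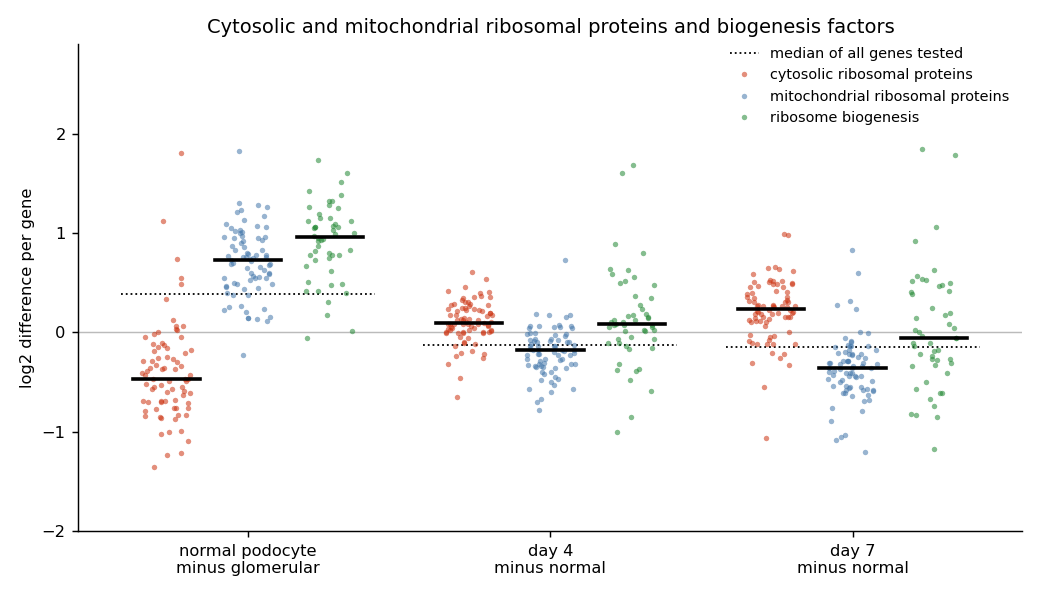
Log2 difference of each gene of 3 lists, cytosolic ribosomal proteins (80 genes), mitochondrial ribosomal proteins (77) and ribosome biogenesis factors (50), in 3 comparisons, with the median of each list (thick bar) and of all genes tested (dotted); 1 point, Rpl3l at its measured value in podocyte against glomerular RNA, lies off the axis. Cytosolic members have medians of -0.47, 0.10 and 0.24, and mitochondrial ones 0.73, -0.18 and -0.36.

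Genes that govern translation of the pyrimidine-tract mRNAs, the mTORC1 pathway with its regulators, fell at day 7 in 12 of 18 cases, with 1 higher and a median of -0.57. Over all genes 36.7% fell and 21.6% rose, with a median of -0.14. The falls on the list included Nprl2 (-1.47 ± 0.12) and Nprl3 (-0.87 ± 0.10), subunits of a complex that restrains mTORC1, and the kinase Mtor (-0.79 ± 0.27). Eif4ebp1, a translation repressor that mTORC1 inactivates, rose by 0.93 ± 0.18. At day 4 4 fell and 1 rose, with a median of -0.25, and in normal podocyte against glomerular RNA 13 were higher and 1 lower, with a median of 0.60. Of all genes 19.9% fell and 12.4% rose at day 4, and 51.6% were higher and 27.5% lower in podocyte RNA. Other mRNAs with a pyrimidine tract, mostly translation factors, gave 9 higher and 7 lower of 21 in podocyte RNA (median 0.03), with Pabpc1, the poly(A)-binding protein, at -0.93 ± 0.11 and Nap1l1, a histone chaperone, at 1.20 ± 0.13. After LMB2 1 rose and 2 fell at day 4, and 4 rose and 3 fell at day 7, with medians of 0.08 and 0.10. Neither the 9 of 21 higher in podocyte RNA nor the 4 of 21 rises at day 7 exceeded the share of all genes. Pabpc1 was higher at day 7 by 0.64 ± 0.11, and Npm1, the nucleolar chaperone nucleophosmin, by 0.92 ± 0.14.

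Most members were represented by several probes, which allows a check within the array. Of 80 members 48 had several kept probes, and all probes of a gene had the same sign for 40 of the 48 in podocyte against glomerular RNA. The number was 32 at day 4, 35 at day 7 and 31 for day 7 against day 4. Of the called members among these, signs were uniform across probes for 28 of 32 in podocyte against glomerular RNA, for 2 of 5 at day 4, for 12 of 16 at day 7 and for 2 of 2 for day 7 against day 4. Probes of 1 gene were called in opposite directions for Rps3 and for Rpl15, among others. Rps3, which lines the mRNA entry channel and has a role in DNA repair, was lower in podocyte RNA on its brighter probe (-0.57 ± 0.12), with 5.12 to 5.41 in podocyte RNA and 5.63 to 5.95 in glomerular RNA, and higher on the other (0.33), and the call was lost with the mean of both (-0.12). It was not called at day 4 (-0.19) or day 7 (-0.04). Ribosomal protein genes have many near-identical processed copies in the genome, and the probe sequences were not used here, so a probe's signal may hold more than 1 gene.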

How the data were processed

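Polysome RNA of 16 samples was hybridised to 1-colour Agilent arrays and read with Agilent Feature Extraction 11.5.1.1, per the submitters' processing notes. The deposited scanner files list, per the file headers, the processed intensity of every spot, a linear value from which that program had subtracted background and which was not scaled between arrays, beside its raw and background intensity and its flags. The authors' deposited value table gives log2 values for 39430 probes. Every column was the log2 processed intensity of a single array plus a shift whose origin is not given in the sources used here, with column medians of -3.17 to -2.51. In 6 columns of the normal groups that array bore another replicate number than the column, within its group, and the numbers of the scanner files were used.

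Without control spots and outliers, and with spots of 1 probe averaged, there were 55681 probes. A RefSeq gene table gave 1 symbol to 26582 of them, for 20145 genes. Log2 processed intensity was scaled by subtracting the 75th percentile of each array. A named probe was kept if some group had it well above background in all 4 of its arrays (19048 probes, after 58 with a missing value were set aside), and the kept probe with the highest mean stood for its gene. Group means of all 16 arrays were fitted to 14565 genes with limma 3.58.1 in R 4.3.3 (lmFit, eBayes, 12 residual degrees of freedom, Benjamini-Hochberg adjustment), tested on simulated data, and the 4 comparisons shared this fit. For Rpl3l the fold is a bound: each dim array entered at its own value or at that of its dimmest probe well above background, whichever was higher. Python 3.11.15 with pandas 2.3.3, numpy 2.4.6 and matplotlib 3.10.9 handled tables and plots. Start windows are RefSeq sequences on GRCm38.p6. Alternatives changed the scaling, background correction, probe choice, filter, arrays fitted, block or source of values.

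The members and lists were chosen with earlier results of these data known. Named members are, per comparison, up to 6 called in each direction with the largest differences, the P stalk, 5S and paralog members, Rps6, Rps3, Rps19, Rpsa, Rps27a and Rps4x, those with probes called in opposite directions, and those that failed the filter. A few genes are not reported here. Rpl36a was added as the partner of Rpl36al. From other lists up to 3 genes per direction were named. The labels do not say whether samples are separate animals, so p-values measure the spread between these samples, which may be technical, and the number of arrays limits the precision. Normal podocyte and glomerular samples of 1 number deviated together over all genes (correlations of 0.42, 0.46, 0.46 and 0.51). They also lay side by side on their slide, so paired samples and slide position cannot be told apart. The replicate block changed their counts by less than 1.5 times.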

Additional observations from a re-analysis of the deposited data

Results flagged for a closer look

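In 10 of 124 groups of 4 arrays examined, 1 array lay far from the other 3 by Dixon's ratio. For a single group chance gives about 1 in 20. The groups were 30 members and the members' median on the same arrays, and these genes moved together. So 1 shifted array can give several flags, and the count was not tested against chance. Of the 10 flags, 8 fell on the replicate 1 arrays of normal podocytes and of day 4. On day 4 replicate 1 the median of the ribosomal protein genes was -0.12 relative to normal podocytes, and that array was also low for Rps12 (6.89, the others 7.21 to 7.22), Rps4x (4.81, the others 5.12 to 5.18) and Rps6 (6.41, the others 6.62 to 6.64). Normal podocyte replicate 1 was high for Rplp0 (7.18, the others 6.67 to 6.74), Rpl36al (6.06, the others 5.71 to 5.77), Rps3 (5.41, the others 5.12 to 5.15) and Rpl18 (6.79, the others 6.34 to 6.38). Glomerular replicate 1 was high for Rps19 (5.55, the others 5.15), and glomerular replicate 3 was low for Rpl3l (-4.39, the others -3.35 to -3.14).

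The changes at day 7 and day 4 differed by test for 3 members. The change at day 7 minus that at day 4 was -0.59 for Rpl21, 0.44 for Rplp0 and 0.39 for Rpl41 by limma's test of day 7 against day 4. Both times are set against the same normal arrays. The difference itself was measured within 1 slide, where time and slide row cannot be told apart.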

How the results depend on the processing

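For podocyte against glomerular RNA every alternative kept the members' median below 0. It was -0.66 with quantile normalization and -0.65 with it after normexp correction, and without 1 replicate it ran from -0.56 to -0.40. Those fits called 43 to 54 members lower and 5 to 6 higher. With the slide row as a block, chosen after seeing the data, 51 were lower. Within row 1, 19 of 80 were lower, about the 24.4% of all genes, and within row 2, 42 of 80 against 21.8%, each with 4 arrays. The median of the members was -0.40 in row 1 and -0.53 in row 2, where all genes had 0.42 and 0.36. For day 4 against normal, quantile normalization gave 19 rises, and 21 after normexp correction. Falls numbered 1 with array medians set to 0. Without 1 replicate there were 3 to 12 rises, 0 to 2 falls and medians of 0.06 to 0.18. For day 7 against normal, 40 rose with array medians set to 0. Falls numbered 5 under both quantile settings and 3 under normexp correction scaled to the 75th percentile. Without 1 replicate there were 14 to 35 rises, 1 to 3 falls and medians of 0.15 to 0.33. For day 7 against day 4, rises and falls numbered 4 and 4 with quantile normalization, and 10 and 4 with it after normexp correction. There was 1 rise without the filter or in the 8 arrays alone, and without 1 replicate there were 0 to 5 rises, 1 fall and medians of 0.01 to 0.20. The replicate block gave 6 higher and 57 lower for podocyte against glomerular RNA, where samples of 1 number deviated together and lay side by side. It gave 0 rises and 0 falls at day 4 (5 and 3 at an unadjusted p under 0.05), 12 and 2 at day 7, and 0 and 1 for day 7 against day 4 (9 and 1 unadjusted). In these 3 comparisons samples of 1 number correlated at -0.41 to 0.49. Day 4 and day 7 samples of 1 number also lay in the same column of slide 2, while LMB2 and normal samples share only a number. Rps27l turned to -0.21 under quantile normalization and to -0.18 under its normexp version. With the mean of probes Rpl15 turned to -0.046 at day 7. The probes of Rpl15 disagreed, and for Rps27l and the counts above the cause was not tested. Of the other results for named members, 1787 kept their direction and side of the threshold, 117 lost a call, 65 gained one and 87 changed sign with no call. Slide or scan as a block could not be fitted for LMB2 against normal, since each group lies on 1 slide, and in the other comparisons it equals the fit to the 8 arrays. Rpl10l, Rpl39l and Rpl3l are limited by signal near background.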

Other observations

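Genes that escort new ribosomal proteins were mostly higher in podocyte than in glomerular RNA, 11 of 12 with 1 lower and a median of 0.79. Over all genes 51.6% were higher and 27.5% lower, while the ribosomal protein genes were mostly lower. Among the escort genes were Grwd1, a chaperone of Rpl3 (1.34 ± 0.12), and Tsr2, which carries Rps26 (1.17 ± 0.12). Heatr3, which works with Rpl5, was lower (-0.28 ± 0.09). At day 4 2 rose and 1 fell, and at day 7 3 rose and 4 fell, with medians of -0.05 and 0.02. Of all genes 12.4% rose and 19.9% fell at day 4, and 21.6% rose and 36.7% fell at day 7, about the shares of the list at day 7. The importins Ipo7 and Ipo5, which bring ribosomal proteins into the nucleus, rose at both times, Ipo7 by 0.88 ± 0.16 and 0.99 ± 0.16 and Ipo5 by 0.71 ± 0.16 and 0.58 ± 0.16. Tsr2 fell by 0.61 ± 0.12 at day 7.

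Genes that detect stalled ribosomes and clear their products were higher in podocyte RNA in 11 of 13 cases, with 0 lower even at an unadjusted p under 0.05 and a median of 0.71. They include Map3k20, the kinase that senses collided ribosomes (1.01 ± 0.16), and Nemf, which extends stalled chains (0.97 ± 0.09). After LMB2 5 rose and 3 fell at day 4, and 3 rose and 4 fell at day 7, with medians of 0.05 and 0.01. Map3k20 rose at day 4 by 0.59 ± 0.16, and Gtpbp2, a factor that rescues stalled ribosomes, fell by 0.90 ± 0.13 at day 4 and 1.09 ± 0.13 at day 7. In a list of nucleolar stress and p53 genes that also holds Rpl5, Rpl11, Rpl23 and Rps27l, 3 of 12 were higher and 6 lower in podocyte RNA. Of that list 4 rose and 0 fell at day 4 (0 also at an unadjusted p under 0.05), and 5 rose and 1 fell at day 7. Beside both lists, 51.6% of all genes were higher and 27.5% lower in podocyte RNA. Among all genes 12.4% rose and 19.9% fell at day 4, and 21.6% rose and 36.7% fell at day 7. Mdm2, the ligase that removes p53 and is held by Rpl5 and Rpl11, rose by 0.55 ± 0.09 and 0.39 ± 0.09, and Rpl5 and Rpl11 themselves were not called at either time.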
